A study of Homo sapiens with 24 samples.

Results

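This report describes *TF*, which encodes transferrin, with 8 other genes that take up, store, export or sense iron, namely *TFRC*, *STEAP3*, *SLC11A2*, *FTH1*, *FTL*, *SLC40A1*, *ACO1* and *IREB2*. They were measured in U251 cells, an established human GBM cell line, and they are 9 of 14235 genes with a tested probe. Members were chosen by name, and every array probe whose transcript maps to one of the 9 symbols was taken, which gave 15 of 58118 probes, all of which passed the filter on dim probes. *TF* was picked because it was higher after the low dose of G-1 for 24 h, so its values in that comparison are a description and were not tested. G-1 is a synthetic agonist of the G-protein-coupled estrogen receptor GPER.

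Cells received vehicle (DMSO 0.1% in the labels), G-1 at its IC50 or G-1 at 1 µM, each for 24 h or 72 h, with 4 independent biological replicates in each of the 6 groups and 1 array per replicate. All groups, DMSO included, had been kept in steroid-stripped serum before exposure. A label field gives the other duration for 2 of the groups (the IC50 at 24 h, and 1 µM at 72 h), and the durations of the sample titles were used. U251 is a single line in monolayer, without the other cells of a brain. The 8 arrays of G-1 1 µM were hybridised on a slide of their own and scanned in a session of their own, whereas DMSO and G-1 IC50 shared the other 2 slides. Therefore, at each duration, a difference of G-1 1 µM from DMSO or from G-1 IC50 cannot be told apart from the slide and the session.

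On the arrays of the first session 38.6 to 42.2% of probes were well above background, against 35.4 to 38.2% in the second. All 8 astroglial and glioma markers were above background on all 24 arrays. Of the oligodendrocyte markers, another brain cell type that makes transferrin, *OLIG1*, *OLIG2*, *SOX10*, *MAG* and *MOBP* were above background on none, while *CNP* and *MBP* were on all. Of 6 hepatocyte markers, the liver cell that secretes most plasma transferrin, *ALB*, *APOB*, *FGB* and *TTR* were above background on none, and *APOA1* and *SERPINA1* on all. The summed signal of the 8 astroglial markers, in multiples of each array's 75th percentile, was 1128 to 1308 in G-1 1 µM 72 h and 1429 to 1926 in the other 5 groups. The sum of the 9 oligodendrocyte markers was 342 to 393 against 475 to 577. Both sums moved with the changes at G-1 1 µM 72 h below. Of 4 neuronal markers *SYP* was above background on none and 3 on all arrays, with a sum of 4.13 to 5.79 in G-1 1 µM at either duration and 6.07 to 10.5 elsewhere. Of 5 microglial markers with a probe 4 were above background on none, with a sum of 0.868 to 1.02 in G-1 1 µM 72 h and 0.521 to 0.815 elsewhere, and of 3 endothelial markers *PECAM1* was on none, with 0.309 to 0.498 against 0.632 to 1.24. A sum does not give the direction of every marker. Against DMSO at 72 h of 1 µM, 1 of 8 astroglial markers was higher and 6 lower at an adjusted p under 0.05 in limma. Of 3 tested neuronal markers 1 was higher (0.98) and 2 lower. Of all genes 35.2% were higher and 31% lower there. The part of these markers in the results at 1 µM was not tested.

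Transferrin carries ferric iron in plasma and brain fluid and enters cells by binding its receptor, which is taken up into endosomes, where the iron is reduced and moved to the cytosol. Iron that is not used is stored in ferritin or leaves through ferroportin. In iron-poor cells, iron regulatory proteins bind hairpins called iron responsive elements in these mRNAs, which stabilises the mRNA of the receptor and blocks translation of the ferritins, so mRNA levels report only a share of this control.

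Sequences upstream of the ligand and its receptor are shown because the ligand is the member picked for the low dose and the receptor rose at the high dose. They come from RefSeq on GRCh38.p14 and run 5′ to 3′ over the 250 bases before a start. Of the 9 genes, 8 had such a window. *TF* (chr3:133661998-133796641) has 2, of which the downstream window is given, and *TFRC* lies on the minus strand (chr3:196049284-196082090). Capitals mark GC boxes (GGGCGG, both strands), a TATA box (TATAAA, sense strand) and the hypoxia response core (ACGTG, both strands), which did not overlap each other.
TF, chr3:133746143-133746392, plus strand: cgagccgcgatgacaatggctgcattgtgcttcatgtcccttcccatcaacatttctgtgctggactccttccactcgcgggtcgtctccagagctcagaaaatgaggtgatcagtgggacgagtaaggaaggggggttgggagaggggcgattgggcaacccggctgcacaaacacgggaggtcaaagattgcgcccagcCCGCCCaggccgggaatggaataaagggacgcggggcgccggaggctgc
TFRC, chr3:196082091-196082340, minus strand: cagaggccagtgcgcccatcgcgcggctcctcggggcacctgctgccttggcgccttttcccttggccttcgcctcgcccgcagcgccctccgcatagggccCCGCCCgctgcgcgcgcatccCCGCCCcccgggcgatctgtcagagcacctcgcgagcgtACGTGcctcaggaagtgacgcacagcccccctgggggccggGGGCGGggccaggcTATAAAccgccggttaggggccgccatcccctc
The *TF* window held 1 GC box at position −49. The *TFRC* window held GC boxes at −148, −127 and −47, ACGTG at −88 and TATAAA at −33. Among 35116 windows of this length, 42.6% held a GC box, 18.5% ACGTG and 6.8% TATAAA. The antioxidant core TGACNNNGC (10.9% of windows) and the sterol response letters TCACNCCAC (0.883%) were in neither of these windows.

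Part of the iron responsive element of *FTL* (chr19:48965309-48966879, plus strand) is given because the ferritins are textbook carriers of this element. The stretch ends with the first 50 transcribed bases, so bases of the hairpin beyond them are not shown. Capitals mark the loop of the element and the base after it. The search was for a bulged C followed after 5 bases by CAGTGN. Of all windows 1.67% held these letters on the sense strand within the first 50 transcribed bases.
FTL iron responsive element, chr19:48965329-48965358, plus strand: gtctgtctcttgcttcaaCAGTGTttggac

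Levels below are log2 signal minus the 75th percentile of each array, read from the brightest tested probe of a gene. Thus 0 is the 75th percentile of the 58118 probes kept, and a level cannot be set against that of another probe. A change was called when limma's p, adjusted by Benjamini-Hochberg over 22970 probes, was under 0.05. Calls described as lost under another setting leave aside settings that also require a fold above 2. In these bulk samples fewer cells that make an mRNA and less of it per cell cannot be told apart.

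*TF* was the member with the largest change at the low dose, and its highest levels were those of both doses at 24 h. In DMSO 24 h its levels were −1.63, −1.74, −1.86 and −2.04. In G-1 IC50 24 h they were 0.18, −0.51, −0.20 and 0.15. In G-1 1 µM 24 h they were −0.56, −0.28, −0.38 and 0.02. Every array of either dose lay above every DMSO array, and the doses overlapped each other. The difference from DMSO was 1.72 (SE 0.24, 95% interval 1.23 to 2.21), or 3.30-fold, at the IC50, and 1.52 (SE 0.24), or 2.86-fold, at 1 µM. The comparison that picked *TF* shares its DMSO arrays with the second value, so neither is tested. The spot was dim, with raw intensities of 34.8 to 51.0 in DMSO 24 h, 104 to 210 in G-1 IC50 24 h and 79.2 to 126 in G-1 1 µM 24 h, and was above background on all of these arrays. DMSO and IC50 arrays lay together on 2 slides, and within them the IC50 difference was 1.49 (2 arrays against 3) and 1.90 (2 against 1). Over the alternative settings it ran from 0.89, with normexp background correction, to 1.81, and the difference at 1 µM from 0.68, with normexp, to 1.56.

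At 72 h, in arrays that had no part in picking it, no rise of *TF* passed the test. Its levels were −1.04, −1.86, −1.56 and −2.26 in DMSO 72 h. In G-1 IC50 72 h they were −1.09, −1.36, −1.23 and −0.87. In G-1 1 µM 72 h they were −2.86, −2.60, −2.22 and −1.74. The IC50 arrays were less spread than the DMSO arrays and 1 of them exceeded all of these, and 2 of the 1 µM arrays were below all DMSO arrays. At the IC50 the difference was 0.54 (SE 0.24, interval 0.05 to 1.03) and did not pass the test (adjusted p = 0.49, limma), and within the shared slides it was 0.70 (1 array against 2) and 0.23 (3 against 2). At 1 µM *TF* fell by 0.68 (SE 0.24, adjusted p = 0.0159), with overlapping groups. This call rested on few arrays, since it was lost without DMSO 72 h replicate 1 (−0.47, adjusted p = 0.083) or G-1 1 µM 72 h replicate 1 (−0.51, adjusted p = 0.072), and with another background correction (−0.16, adjusted p = 0.20). *TF* was above background on 3 of the 4 arrays of G-1 1 µM 72 h.

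The doses separated more clearly at 72 h than either did from DMSO. All 4 *TF* values of G-1 1 µM 72 h lay below all 4 of G-1 IC50 72 h, and the difference was −1.22 (SE 0.24, adjusted p = 0.000147), which shrank to −0.36 with normexp background correction and still passed. Within the slide of the 1 µM arrays, *TF* fell by 2.06 from 24 h to 72 h (SE 0.24, adjusted p = 7.5e-07), in a comparison added after the data had been seen. The DMSO groups differed by 0.14 between durations. The change in the 1 µM effect from 24 h to 72 h was −2.19 (SE 0.33) and that in the IC50 effect −1.18, both of which contain the 24 h arrays that picked *TF* or shared its controls. From the highest mean to the lowest the order was G-1 IC50 24 h (−0.09 ± 0.33, SD, n = 4), G-1 1 µM 24 h (−0.30 ± 0.24), G-1 IC50 72 h (−1.14 ± 0.21), DMSO 72 h (−1.68 ± 0.51), DMSO 24 h (−1.82 ± 0.17) and G-1 1 µM 72 h (−2.36 ± 0.49). The first pair and both DMSO groups were closer together than their SD. Only G-1 1 µM 24 h and G-1 IC50 72 h, among neighbours, did not overlap.

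**Figure D1:**
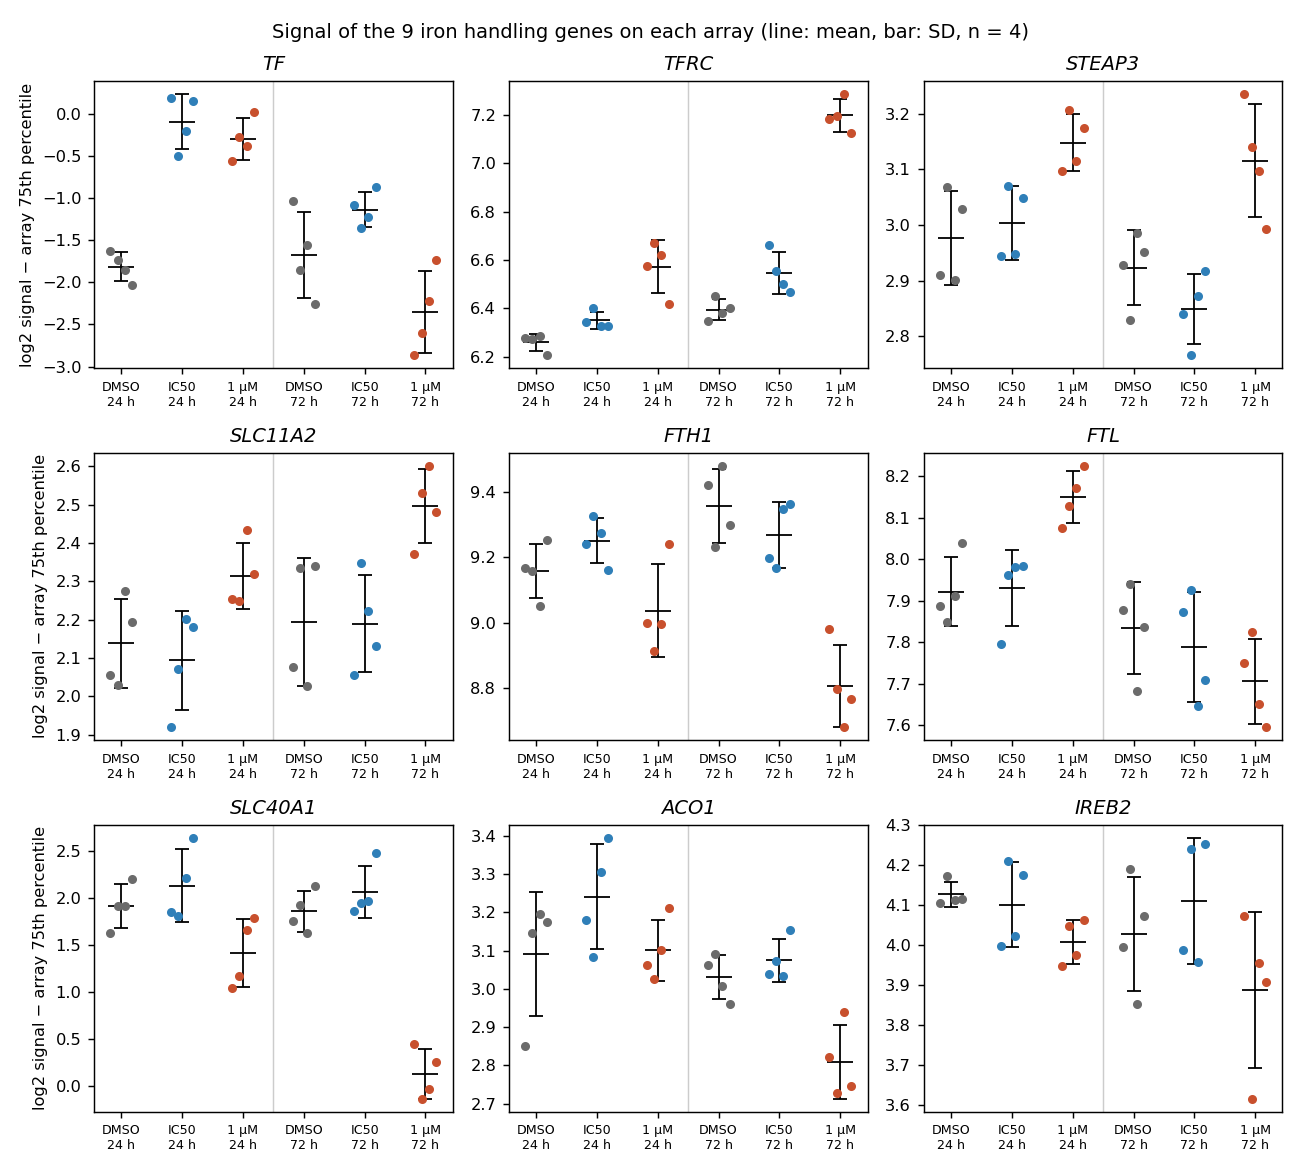
Level of the 9 genes (y axis, log2 signal minus the array's 75th percentile, each panel on its own scale) in the 6 groups (x axis). Each point is an array, the line the mean and the bar the SD of 4 arrays. *TF* is high in both doses at 24 h, *TFRC* is highest and *SLC40A1* lowest in G-1 1 µM 72 h.

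*TFRC*, the receptor that takes up iron-loaded transferrin, rose with the high dose and rose further with time. Its levels were 6.28, 6.27, 6.28 and 6.21 in DMSO 24 h and 6.58, 6.67, 6.62 and 6.42 in G-1 1 µM 24 h. They were 6.35, 6.45, 6.38 and 6.40 in DMSO 72 h and 7.18, 7.20, 7.29 and 7.12 in G-1 1 µM 72 h. At both durations every array of 1 µM exceeded every DMSO array. The rise was 0.31 (SE 0.06, adjusted p = 0.000729) at 24 h and 0.80 (SE 0.06, 1.74-fold, adjusted p = 4.71e-10) at 72 h. The rise at 72 h was larger than that at 24 h by 0.49 (SE 0.08, adjusted p = 0.000158), a difference in which a constant offset of the slide cancels. Within the slide of the 1 µM arrays the level was 0.63 higher at 72 h (adjusted p = 5.4e-08). The call at 24 h was lost when arrays were scaled to their 50th percentile (0.23, adjusted p = 0.117) and with another background correction (0.20, adjusted p = 0.066).

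At the IC50 no change of the receptor passed the test. Levels were 6.34, 6.40, 6.33 and 6.33 in G-1 IC50 24 h and 6.66, 6.56, 6.50 and 6.47 in G-1 IC50 72 h. At each duration these lay above all DMSO arrays, but the differences of 0.09 (interval −0.03 to 0.21) and 0.15 (interval 0.03 to 0.27) did not pass the test (adjusted p = 0.998 and 0.41). G-1 1 µM exceeded the IC50 by 0.22 at 24 h (adjusted p = 0.00896) and by 0.65 at 72 h (adjusted p = 9.77e-09). The call at 24 h was lost under 5 other settings, with 0.06 (adjusted p = 0.734) when scaled to the 50th percentile and 0.08 (adjusted p = 0.501) with normexp. Thus the means of ligand and receptor mRNAs ran apart at 72 h of 1 µM, where *TFRC* was at its highest and *TF* at its lowest. The fall of *TF* against DMSO there was not called with normexp (−0.16, adjusted p = 0.20, limma) or without some single arrays. Neither change against DMSO can be told apart from the slide and the session. The means of *TFRC* were 7.20 ± 0.07 (SD, n = 4) in G-1 1 µM 72 h, 6.57 ± 0.11 in G-1 1 µM 24 h, 6.55 ± 0.09 in G-1 IC50 72 h, 6.40 ± 0.04 in DMSO 72 h, 6.35 ± 0.04 in G-1 IC50 24 h and 6.26 ± 0.04 in DMSO 24 h. Of neighbours in this order, only G-1 1 µM 24 h and G-1 IC50 72 h lay closer together than their SD.

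*STEAP3*, the endosomal reductase that converts ferric to ferrous iron, had 2 probes. The brightest read 2.93, 2.83, 2.99 and 2.95 in DMSO 72 h and 3.24, 3.14, 3.10 and 2.99 in G-1 1 µM 72 h, with the lowest treated array just above the highest DMSO array. It rose by 0.19 at 72 h (SE 0.06, adjusted p = 0.00984), where its other probe rose by 0.40 (adjusted p = 0.000419). This call of the brightest probe was lost when scaled to the 50th percentile (0.12, adjusted p = 0.389) and when its arrays were fitted alone (adjusted p = 0.056). At 24 h it rose by 0.17 (SE 0.06, adjusted p = 0.0406), a call lost under 6 other settings and without any of 6 arrays, and its other probe differed by 0.18 (adjusted p = 0.12). At the IC50 the brightest probe differed by 0.03 at 24 h and −0.07 at 72 h, and neither passed.

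*SLC11A2*, the transporter DMT1 that moves ferrous iron out of the endosome, read 2.08, 2.34, 2.03 and 2.34 in DMSO 72 h and 2.37, 2.53, 2.60 and 2.48 in G-1 1 µM 72 h. The lowest treated array exceeded the highest DMSO array narrowly. It rose by 0.30 (SE 0.09, adjusted p = 0.00585), and its second probe by 0.33 (adjusted p = 0.027). The call of the brightest probe was lost when scaled to the 50th percentile (0.23, adjusted p = 0.112) and with normexp background correction (0.20, adjusted p = 0.058). At 24 h of 1 µM the brightest probe differed by 0.18 (adjusted p = 0.14) and the second by 0.00. At the IC50 the brightest probe differed by −0.04 and −0.00.

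**Figure D2:**
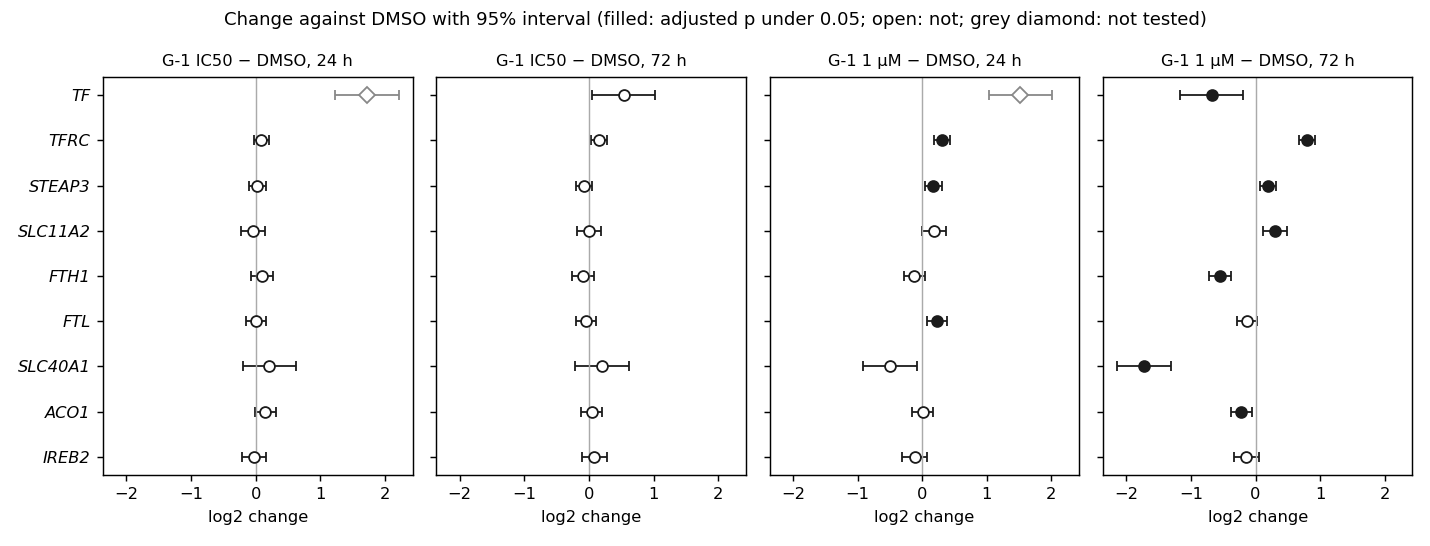
Change against DMSO (x axis, log2) of each gene's brightest probe in the 4 treatments, with its 95% interval. Filled points passed the test, open points did not and grey diamonds, used for *TF* at 24 h, were not tested. At the IC50 all tested points are open, and at 1 µM for 72 h only *FTL* and *IREB2* are.

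*FTH1*, the heavy chain of ferritin that oxidises iron for storage, fell after the long exposure to 1 µM. Its brightest probe read 9.42, 9.23, 9.48 and 9.30 in DMSO 72 h and 8.98, 8.80, 8.68 and 8.77 in G-1 1 µM 72 h, without overlap. It fell by 0.55 (SE 0.08, adjusted p = 5.81e-06), and the other 2 probes fell by 0.33 (adjusted p = 0.000365) and fell by 0.51 (adjusted p = 0.000106). At 24 h the 3 probes differed by −0.12, 0.05 and −0.10, and none passed. The effect at 72 h was lower than that at 24 h by all 3 probes, with −0.43 (SE 0.11, adjusted p = 0.00691) for the brightest. Part of this lay in DMSO, where the mean of the brightest probe was 9.16 at 24 h and 9.36 at 72 h. Within the slide of the 1 µM arrays the brightest probe fell by 0.23 from 24 h to 72 h (adjusted p = 0.028, limma). There the other probes fell by 0.22 (adjusted p = 0.017) and, without passing, by 0.21 (adjusted p = 0.088). At the IC50 the brightest probe differed by 0.09 and −0.09, neither past the test.

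*FTL*, the light chain of ferritin, gave different answers from its 3 probes. The brightest read 7.89, 7.85, 7.91 and 8.04 in DMSO 24 h and 8.08, 8.13, 8.17 and 8.22 in G-1 1 µM 24 h, and rose by 0.23 (SE 0.08, adjusted p = 0.0276). A second probe rose by 0.17 (adjusted p = 0.048), whereas the third was at −0.31 (adjusted p = 0.16). At 72 h the brightest probe was at −0.13 (adjusted p = 0.14), and the other probes fell by 0.30 (adjusted p = 0.000434) and fell by 0.67 (adjusted p = 0.00139). Treated and DMSO arrays of the brightest probe overlapped at 72 h, from 7.60 to 7.82 and from 7.68 to 7.94. From 24 h to 72 h the effect fell by 0.36 for the brightest probe (SE 0.11, adjusted p = 0.0147), a call lost when scaled to the 50th percentile (adjusted p = 0.110), without the filter on dim probes (0.079) and with normexp (−0.28, adjusted p = 0.086). The call at 24 h was lost under 3 other scalings or corrections and without any of 5 arrays.

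**Figure D3:**
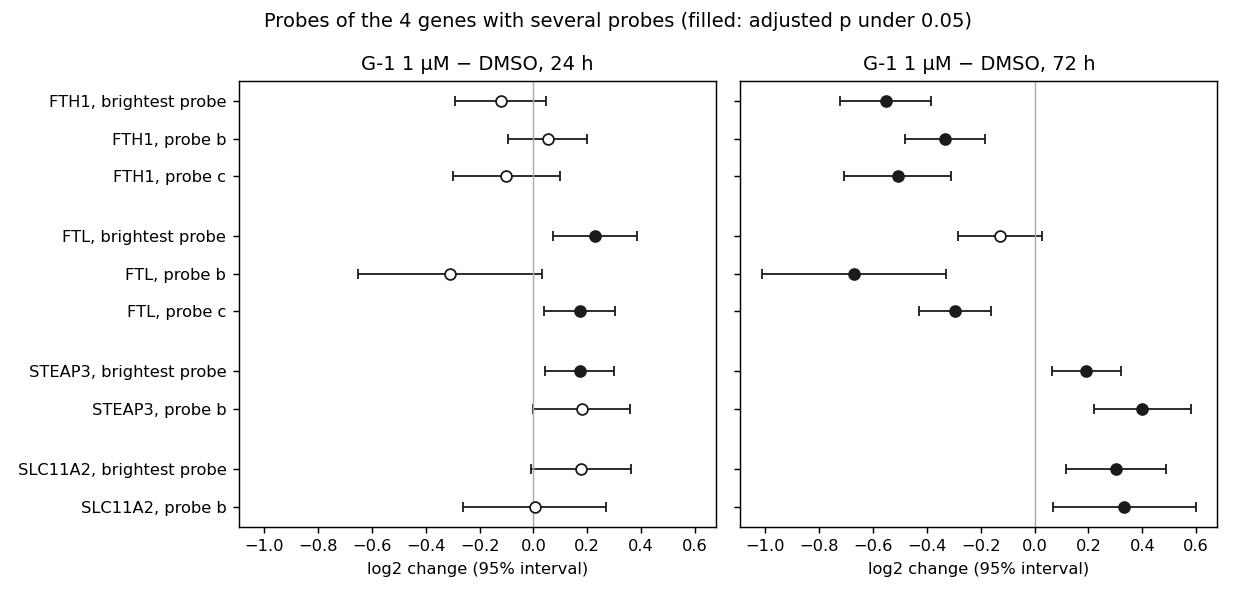
Change against DMSO at G-1 1 µM (x axis, log2, with 95% interval) for each probe of the 4 genes with several probes, at 24 h and 72 h. Filled points passed the test. The *FTH1* probes lie together below 0 at 72 h, and the *FTL* probes lie on both sides of 0 at 24 h.

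*SLC40A1*, which encodes ferroportin, the exporter of iron from cells, had the largest fall against DMSO among the 9 genes. Its levels were 1.76, 1.92, 1.62 and 2.12 in DMSO 72 h and 1.86, 1.95, 1.96 and 2.48 in G-1 IC50 72 h. In G-1 1 µM 72 h they were 0.44, −0.13, −0.04 and 0.25, all far below both other groups. It fell by 1.73 (SE 0.20, 3.31-fold, adjusted p = 2.75e-07) against DMSO. Against the IC50 it fell by 1.93 (adjusted p = 6.61e-08). The call held in all 13 alternative settings, over which the change ran from −1.80 to −1.36, and in all 24 fits without an array.

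At 24 h no change of *SLC40A1* passed the test. Levels were 1.63, 1.91, 1.91 and 2.20 in DMSO 24 h and 1.04, 1.17, 1.66 and 1.79 in G-1 1 µM 24 h, where 2 arrays lay below all DMSO arrays. The difference of −0.50 (SE 0.20, interval −0.92 to −0.08) did not pass (adjusted p = 0.064), though it did with normexp, with quantile normalization, with an intensity trend and without DMSO 24 h replicate 1, G-1 1 µM 24 h replicate 4 or G-1 IC50 24 h replicate 4. From 24 h to 72 h the effect deepened by −1.23 (SE 0.28, adjusted p = 0.00257), and the levels within the slide of the 1 µM arrays dropped by 1.28 (adjusted p = 3.4e-05). At the IC50 the gene differed by 0.21 (interval −0.20 to 0.63) at 24 h and 0.20 (interval −0.21 to 0.62) at 72 h, neither past the test. The 4 DMSO and IC50 groups had means from 1.86 to 2.13, closer to their neighbours than the SD, above 1.41 ± 0.37 in G-1 1 µM 24 h and 0.13 ± 0.26 in G-1 1 µM 72 h.

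*ACO1* and *IREB2* encode the iron regulatory proteins, of which the first is also the cytosolic aconitase. *ACO1* read 3.06, 3.09, 3.01 and 2.96 in DMSO 72 h and 2.82, 2.73, 2.94 and 2.75 in G-1 1 µM 72 h, with the highest treated array just below the lowest DMSO array. It fell by 0.22 (SE 0.08, adjusted p = 0.0195), a call lost under 3 alternative settings and without any of 3 arrays. *IREB2* was 3.85 to 4.19 in DMSO 72 h and 3.61 to 4.07 in G-1 1 µM 72 h, a difference of −0.14 that did not pass (adjusted p = 0.19). At 24 h of 1 µM the differences were 0.01 and −0.12, and at the IC50 all 4 lay between −0.03 and 0.15, with none past the test.

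Counted together, the members showed little at the IC50 and shifted in both directions at 1 µM for 72 h. At G-1 IC50 24 h none of the 8 members other than *TF* passed in limma or in the methods' test after adjustment, none had an unadjusted p under 0.05, and 0.246% of all genes passed. At G-1 IC50 72 h none of the 9 passed in limma or in the test of the study's methods after adjustment, and 0.906% of all genes passed. There 2 (*TF* and *TFRC*) had an unadjusted p under 0.05 in limma. The share of all genes at that unadjusted threshold was not counted at either duration, so nothing is read from these unadjusted counts. At G-1 1 µM 24 h 3 of the 8 members other than *TF* were higher (*TFRC*, *FTL* and *STEAP3*) and none lower, and 30.6% of all genes passed, 20% higher and 10.5% lower. At G-1 1 µM 72 h 3 members were higher (*TFRC*, *SLC11A2* and *STEAP3*) and 4 lower (*SLC40A1*, *TF*, *FTH1* and *ACO1*), so 7 of 9, where 66.1% of all genes passed, 35.2% higher and 31% lower. The share of members that passed at 72 h of 1 µM was thus near the background. These are calls in limma, and that of *TF* was not made by the methods' test. A fold above 2 as well was met by *SLC40A1* at 1 µM for 72 h, as by 12.3% of all genes. The untested differences of *TF* at 24 h were above 2-fold too, and nothing is read from the shares of all genes that met both thresholds there (0.0632% at the IC50 and 1.69% at 1 µM), since *TF* was picked on those DMSO arrays.

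Groups did not overlap for 2 members at G-1 IC50 24 h (2.76% of all genes), 1 at G-1 IC50 72 h (7.55%), 5 at G-1 1 µM 24 h (30.3%) and 6 at G-1 1 µM 72 h (58.7%), with *TF* among them at 24 h by its choice. The median change of the members was 0.09, 0.04, 0.17 and −0.14 in that order, beside medians over all genes of −0.01, −0.02, 0.04 and 0.03. The split by direction at 1 µM depended on the scaling. At 24 h, with *TF* counted, 4 higher and 0 lower became 1 and 0 when scaled to the 50th percentile and 2 and 2 after quantile normalization, while the share of all called genes that were higher went from 65.5% to 44.2% and 54.3%. At 72 h 3 higher and 4 lower became 1 and 3, and 3 and 5.

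Between the doses, 3 members differed at 24 h, with *TFRC* and *FTL* higher and *SLC40A1* lower at 1 µM (−0.71, adjusted p = 0.0125), where 26.5% of all genes did, 18.2% higher and 8.32% lower. At 72 h 8 differed by their brightest probe, all but *FTL*, beside 65.1% of all genes (35.9% higher and 29.3% lower). Another probe of *FTL* was lower at 1 µM than at the IC50 there (−0.26, adjusted p = 0.0016, limma). None of the 3 calls at 24 h held when its arrays were fitted alone. The call of *SLC40A1* at 24 h was lost without G-1 1 µM replicate 1 (−0.59, adjusted p = 0.052) or IC50 replicate 4 (−0.54, adjusted p = 0.059), and that of *FTL* without 1 µM replicates 2, 3 or 4 or IC50 replicates 1, 2 or 4 (0.17 to 0.24). At 72 h that of *IREB2* (−0.22, adjusted p = 0.041) was lost under 3 other settings and without replicate 2 or 4 of either dose (−0.13 to −0.23), and those of *SLC11A2* and *STEAP3* when scaled to the 50th percentile. A fold above 2 was reached by no member at 24 h (1.43% of all genes), and by *TF* and *SLC40A1* at 72 h (11.4%). Groups did not overlap for 5 members at 24 h (27.3% of all genes) and 7 at 72 h (56.8%). With scaling to the 50th percentile the median gene moved from 0.05 to −0.12 at 24 h and from 0.05 to −0.11 at 72 h, and the members at 24 h became 0 higher and 2 lower. The share of all calls that were higher went from 68.6% to 19.1% at 24 h. Between DMSO 72 h and DMSO 24 h no member passed in limma or the methods' test, with differences from −0.10 to 0.20, of which *TFRC* (0.14, adjusted p = 0.23) was the only member whose groups did not overlap, and 3.34% of all genes passed, with 12.8% not overlapping.

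The change of the 1 µM effect with duration passed for 4 members other than *TF*, *TFRC* upwards and *SLC40A1*, *FTH1* and *FTL* downwards, and for 34.1% of all genes (16.4% upwards and 17.7% downwards). Of these 4, *SLC40A1* had a change above 2-fold, as 6.3% of all genes did. The corresponding change of the IC50 effect passed for no member in limma, and for 0.014% of all genes. *TF* is not read in it, since it contains the comparison that picked the gene. Within the slide of the 1 µM arrays 6 members differed between durations, the same 4 with *TF* and *ACO1* (−0.29, adjusted p = 0.0059), and 43.2% of all genes did.

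Of 67 other genes of iron metabolism grouped by role, 54 had a tested probe. At the IC50 none passed in limma at 24 h or 72 h, beside 0.246% and 0.906% of all genes, and none in the methods' test after adjustment. At an unadjusted p under 0.05 in limma there were 2 and 6. No share of all genes was counted at that threshold, so nothing is read from these 2 counts. At G-1 1 µM 10 of the 54 were higher and 5 lower at 24 h, where 30.6% of all genes passed, 20% higher and 10.5% lower. At 72 h 22 were higher and 17 lower, so 39 of 54 beside the 66.1% over all genes. The counts by role below stand beside the 35.2% of all genes that were higher and 31% that were lower at 72 h. Their median change was 0.04 at 24 h and 0.01 at 72 h, while that of all genes was 0.04 and 0.03. With scaling to the 50th percentile the counts were 3 and 3 at 24 h, and 16 and 17 at 72 h.

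Both oxidases that load exported iron onto transferrin fell at 1 µM for 72 h. *CP*, ceruloplasmin, fell by 2.63 (SE 0.29, 6.19-fold, adjusted p = 1.62e-07) and *HEPH*, hephaestin, fell by 1.46 (SE 0.10, 2.75-fold, adjusted p = 1.4e-10). All 4 treated arrays of each lay below all DMSO arrays, and *CP* was above background on 3 of these 4. Neither passed at 24 h, where they differed by −0.45 and −0.05, and both effects deepened with duration (−2.18, adjusted p = 0.00048, and −1.41, adjusted p = 4.24e-07). With *SLC40A1*, all 3 tested export genes were lower at 72 h of 1 µM, where 31% of all genes were.

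Of 9 tested genes of other uptake and reduction, 4 were higher and 2 lower at 72 h. *LTF*, the iron-binding lactoferrin, rose by 1.23, the zinc and iron importer *SLC39A8* by 1.10, the reductase *STEAP1* by 1.03 and the importer *SLC39A14* by 0.59. The reductase *CYBRD1* fell by 0.91 and *TFR2*, the second transferrin receptor, fell by 0.61. Thus the receptors moved in opposite directions, and *TFR2* had fallen by 0.74 already at 24 h.

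In storage, the iron chaperones *PCBP1* and *PCBP2*, which deliver iron to ferritin, rose by 0.49 and 0.21 at 72 h, and *NCOA4*, the receptor that sends ferritin to degradation, fell by 0.30. Among regulators, *BMP6*, an inducer of hepcidin, rose by 0.57 at 24 h and 1.16 at 72 h, and was the only called gene of the 3 tested of the hepcidin axis at 72 h. *HAMP*, hepcidin itself, fell by 0.60 at 24 h (adjusted p = 0.0213), where it was above background on 1 of 4 treated arrays, and differed by 0.22 at 72 h (adjusted p = 0.308). *CUL1* rose by 0.52 and *SKP1* fell by 0.18, both subunits of the ubiquitin ligase that degrades *IREB2* protein. *FBXL5*, tested in the same list, had a mean level of 4.63 in DMSO 72 h and 4.68 in G-1 1 µM 72 h. Turnover of the protein was not tested. Of 3 other mRNAs with an iron responsive element, *EPAS1*, a hypoxia-inducible transcription factor, fell by 0.30.

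Of 15 genes of mitochondrial iron and iron-sulfur clusters, 7 were higher and 3 lower at 72 h. *ISCA1*, a cluster assembly factor, rose by 0.96 and the iron importer *SLC25A28* by 0.79, and *CISD3* fell by 1.03. Of 9 genes of heme synthesis, 3 were higher and 4 lower. *ALAS1*, the first enzyme, rose by 0.37, while *FECH*, which inserts the iron, fell by 0.56 and *ABCB6* fell by 0.73. Of 7 genes of heme breakdown and transport, 4 were higher and 2 lower, among them *HMOX1*, the inducible heme oxygenase, which rose by 1.42 (SE 0.12, adjusted p = 4.36e-09), the heme exporter *FLVCR1*, which rose by 1.18, and the heme transporter *SLC48A1*, which fell by 0.75. *HMOX1* had differed by 0.12 at 24 h (adjusted p = 0.495), and *FLVCR1* had risen by 0.64.

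**Figure D4:**
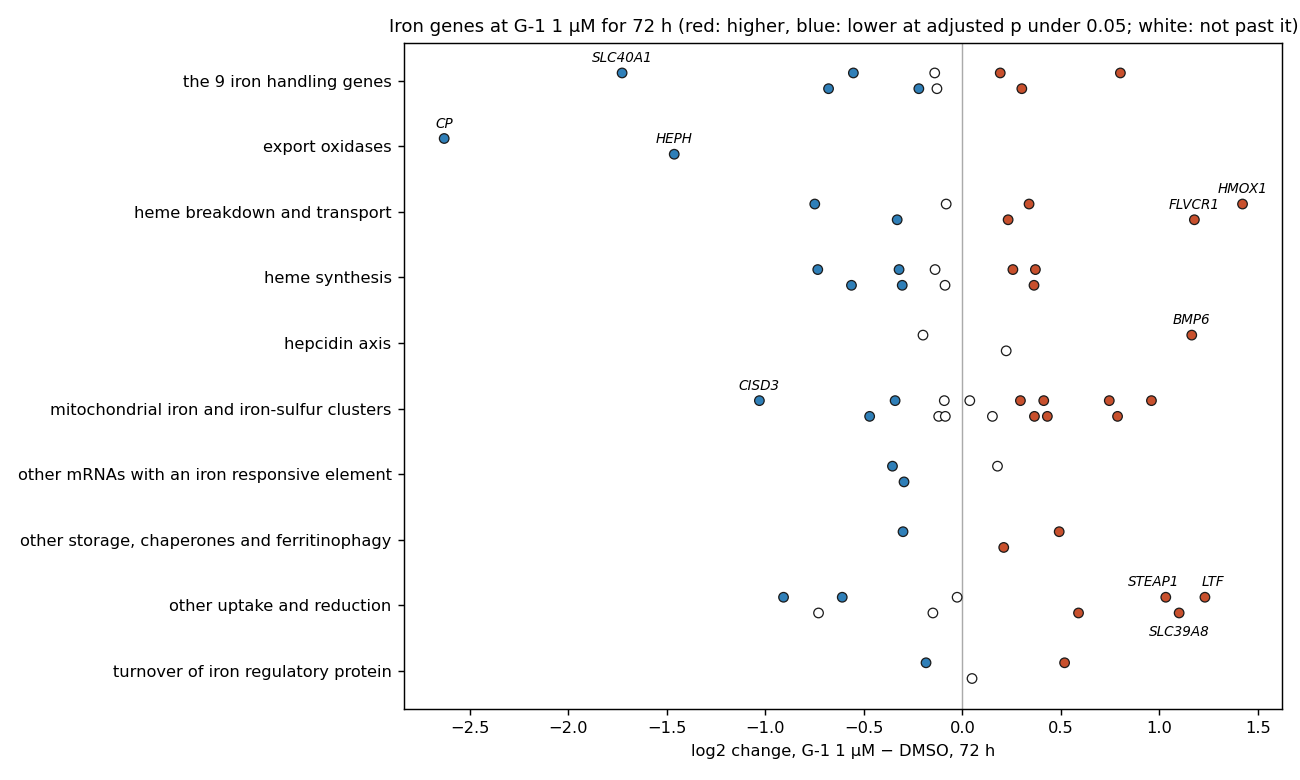
Change at G-1 1 µM against DMSO at 72 h (x axis, log2) of the 9 members and 54 other iron genes, each point a gene, in rows by role. Red genes were higher and blue genes lower at an adjusted p under 0.05, and genes with a fold above 2 are named. Most rows hold both colours, and both export oxidases lie far to the left.

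Across the 24 arrays the genes whose level ran most like that of *TF* were *SREBF1* (Pearson r = 0.87), a transcription factor of fatty acid and sterol synthesis, *ACACA* (0.87), acetyl-CoA carboxylase, *LPCAT3* (0.86), a phospholipid acyltransferase, *ABCA1* (0.82), a cholesterol exporter, and *GACAT2* (0.82). These are descriptions over arrays that share groups and slides, among 14234 genes whose 95th percentile was 0.51 and median −0.01. The arrays include those that picked *TF*, so a shared rise at 24 h follows in part from the choice of genes. Over the 16 DMSO and IC50 arrays the first 5 were *LPCAT3* (0.91), *ACSL3* (0.86), *ABCA1* (0.85), *SLC7A5* (0.85) and *DPYSL2* (0.84). Of the first set 2 remained there, and 1 remained by Spearman's rank.

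Relative to DMSO 24 h, *SREBF1* was 1.02 higher in G-1 IC50 24 h, 0.85 higher in G-1 1 µM 24 h and at −0.02 and −0.92 in the corresponding groups at 72 h, where *TF* was at 0.68 and −0.54. *LPCAT3* and *ABCA1* were at 0.74 and 0.66 in G-1 IC50 24 h and at −0.04 and 0.02 in G-1 1 µM 72 h. None of the 8 other iron handling genes was among these, and their r with *TF* over the 24 arrays ran from −0.45 for *TFRC* and −0.42 for *SLC11A2* to 0.67 for *ACO1*.

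**Figure D5:**
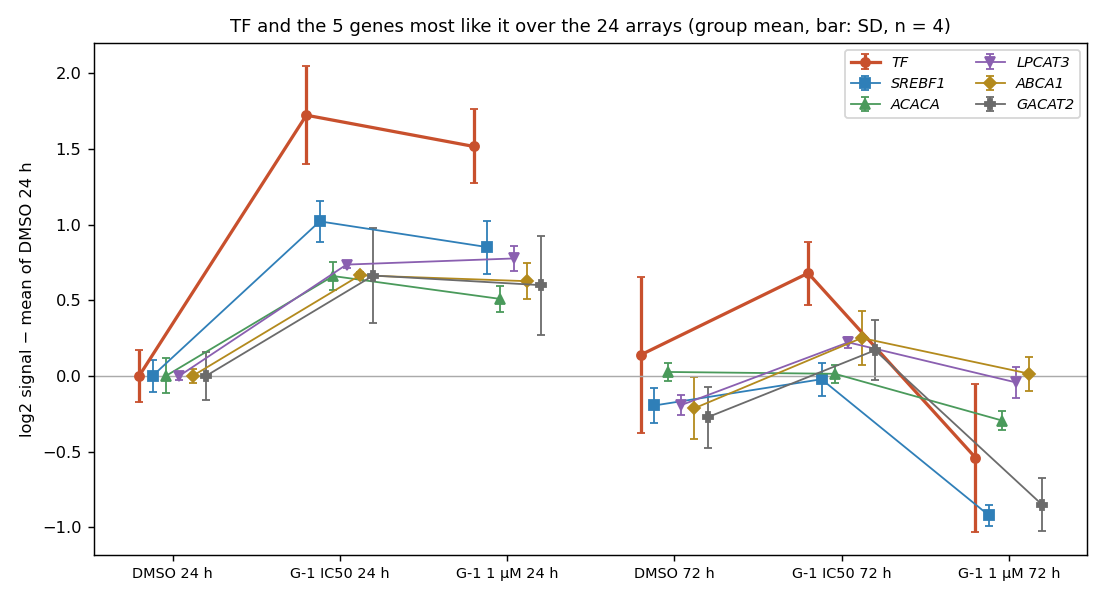
Mean level relative to DMSO 24 h (y axis, log2, bar SD, n = 4) of *TF* and the 5 genes most like it over 24 arrays, in the 6 groups (x axis). All 6 are above DMSO in both doses at 24 h, which the way they were chosen favours. At G-1 1 µM 72 h they lie between −0.92 and 0.02.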

How the data were processed

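RNA of 24 cultures of U251 cells was labelled and hybridised to one-colour Agilent arrays, 8 to a slide. The authors deposited, per the file headers, background-subtracted spot intensities from Feature Extraction (12.1.1.1 in the headers, 10.7.3.1 in the submitters' processing notes). A deposited table of log2 values differed from log2 intensity minus each array's 75th percentile and each probe's median by a median of 0.0019, so its scale and centring were known, and it was not tested. From the intensities, log2 values were averaged over the spots of a probe, with outlier spots left out, and each array's 75th percentile was then subtracted. Symbols came from RefSeq by transcript accession (35032 of 58201 probes). The 22970 probes tested were those that 1 or more groups showed well above background on each of their 4 arrays. No spot was saturated. limma 3.58.1 (R 4.3.3) was fitted to the 6 group means over all arrays, without a block. On simulated data (the 72 h contrast of 1 µM with DMSO, 22970 probes), 78 of 100 probes changed by 1 on the log2 scale and 41 of 100 changed by 0.5 were recovered, and 6 unchanged probes were called. Only these probes were changed there, with independent noise, whereas 66.1% of all genes passed in this contrast of the data. The recovered shares therefore do not give the sensitivity in the data. The number of arrays limits the precision.

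A gene was read by its brightest tested probe. All 9 members are named in every comparison, as are other iron genes past adjusted p 0.05 with a fold above 2 and up to 4 others per list with the largest called change, apart from some that are not reported here. *FBXL5* is named as well, beside the other genes of its list. Genes most like *TF* were the 5 with the highest Pearson r. The members and lists were chosen with earlier results of these data known. Positions are RefSeq's on GRCh38.p14, not those of the array design. Alternatives were other scalings (50th percentile, quantile, normexp with offset 50), filters, probes, slide or replicate blocks, the methods' t-test and leaving out each array.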

Additional observations from a re-analysis of the deposited data

Results flagged for a closer look

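The effect of G-1 1 µM differed between durations by an interaction term in limma for 4 of the 8 genes other than *TF*. From 24 h to 72 h the log2 effect changed by −1.23 for *SLC40A1*, −0.43 for *FTH1*, −0.36 for *FTL* and 0.49 for *TFRC*. For *TF* the change was −2.19, which contains DMSO arrays of the comparison that picked the gene and is given without a test.

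Of 54 sets of 4 arrays, 5 held an array far from the other 3, and chance gives about 1 in 20. The gap to the nearest array, as a share of the set's range, was 0.886 for *FTL* in G-1 IC50 24 h, where replicate 1 read 7.79 and the nearest 7.96. It was 0.858 for *TFRC* in DMSO 24 h (replicate 4, 6.21 against 6.27), 0.858 for *ACO1* in DMSO 24 h (replicate 1, 2.85 against 3.15), 0.857 for *IREB2* in DMSO 24 h (replicate 2, 4.17 against 4.12) and 0.832 for *SLC40A1* in G-1 IC50 72 h (replicate 4, 2.48 against 1.96).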

How the results depend on the processing

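No call of a member reversed. Over members and comparisons, 949 values under other settings stayed on their side of the threshold, 81 lost a call and 14 gained one, and with an array left out 1911 stayed, 28 lost one and 5 gained one. In 57 of those that stayed the sign changed with no call on either side. The counts below include *TF* where it was not tested, and nothing is read from its part in them. With a fold above 2 required as well, the members past the test fell from 4 to 1 at G-1 1 µM 24 h, from 7 to 1 at 72 h, from 3 to 0 and from 8 to 2 between doses at 24 h and 72 h, and from 5 to 2 for the 1 µM effect by duration, and the other iron genes from 15 to 0 at 24 h and from 39 to 9 at 72 h. The methods' t-test, unadjusted with a fold above 2, gave 1, 1, 0 and 2 members in the first 4 of these. It gave 0 and 9 other iron genes. After adjustment it gave 1 member between doses at 24 h. Scaling to the 50th percentile gave 1 member at G-1 1 µM 24 h, 4 at 72 h and 6 other iron genes at 24 h. Normexp gave 2 members at 24 h, 4 at 72 h and 1 with a fold above 2 instead of 3. These 3 include the untested *TF* at 24 h of both doses. Fitting the arrays of a comparison alone gave 0 members between doses at 24 h. Requiring signal on all 24 arrays leaves out *TF*, so 1 member was left with a fold above 2.

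Samples share replicate numbers, but not every pair correlated, so the numbers were not taken to pair them. Deviations of 60 same-numbered pairs correlated at −0.325 to 0.530, with a median of 0.116 and 33 over 0.1, against a median of −0.042 and 38 of 180 for other numbers, and 15 of 24 arrays correlated best with their own number, a hint from the data and not the design. With a replicate block, 1 other iron gene passed at G-1 IC50 24 h and 1 at 72 h, instead of 0, and calls were gained by *SLC40A1* at G-1 1 µM 24 h (−0.50, adjusted p = 0.0125) and by *SLC11A2* between doses at 24 h (0.22, adjusted p = 0.0386). With an array left out, members past the test ranged from 2 to 5 at G-1 1 µM 24 h, 6 to 7 at 72 h, 1 to 4 and 7 to 8 between doses at 24 h and 72 h, and 5 to 5 for 1 µM by duration, and other iron genes from 9 to 17 at 24 h and 36 to 40 at 72 h. Dim spots, *TF* above all, limit the precision, and causes were not tested.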
